A study of Mus musculus with 6 samples.

Results

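The EGF family ligands and ERBB receptors were followed here as 10 genes, 7 of them ligands (Egf, Ereg, Areg, Hbegf, Tgfa, Btc and Nrg1) and 3 of them receptors (Egfr, Erbb2 and Erbb3). They were chosen by gene symbol, not by their values, and each matched 1 of the 53700 gene rows in the count table. RNA sequencing counts were available for 6 mouse colon tumours, 3 from APC-KI mice and 3 from APC-WT mice, pinched off the muscle below them. The APC-KI mice had been on doxycycline for 6 weeks and had recovered, and the drug represses Tcf7l2 throughout the body in these animals. The APC-WT mice kept endogenous Tcf7l2, had been on doxycycline for 10 days and were cachectic, that is, wasting. All animals received 100 mg/kg doxycycline in food pellets, so genotype, time on the drug and cachexia cannot be told apart in this comparison.

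EGF family ligands are made as membrane proteins and are released by proteases at the cell surface. They bind ERBB receptors, which pair up and pass the signal through RAS and the ERK kinases and through PI3K. In the intestine this pathway drives the growth of crypt cells, with EGF as a standard component of organoid medium, and EGFR-driven growth is a well-known feature of colon tumours. EGF, TGF-alpha and amphiregulin bind EGFR. HB-EGF, betacellulin and epiregulin bind EGFR and ERBB4, and the neuregulins NRG1 and NRG2 bind ERBB3 and ERBB4. ERBB2 has no known ligand and acts as the partner of the others.

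The libraries held between 51777342 and 63921108 counts, and levels are given as CPM, counts scaled to a common library size with TMM factors. Tcf7l2, the repressed gene, stood at 4.48, 6.91 and 5.34 CPM in APC-KI tumours, against 44.1, 43.8 and 35.6 CPM in APC-WT tumours, as the labels state. Epithelial markers were abundant in all libraries, with 9 genes (Epcam and Cdh1 among them) summing to between 11630 and 13764 CPM in APC-KI tumours and between 9043 and 10058 CPM in APC-WT tumours. Smooth muscle and fibroblast markers also differed. Summed CPM of 8 smooth muscle markers was 925 to 1539 in APC-KI and 174 to 445 in APC-WT tumours, and of 8 fibroblast markers 2830 to 3919 in APC-KI and 888 to 2436 in APC-WT tumours. In bulk tumours, more cells of a type and more RNA per cell cannot be told apart. APC-WT replicates 1 and 2 held 19164 and 16055 counts of 4 Y-linked genes and the other 4 libraries held 0, so results are also given without those 2 libraries, which leaves 1 APC-WT tumour whose spread is taken to be that of the other group.

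All 10 genes passed the filter on low counts and were tested with edgeR's quasi-likelihood test among 19127 genes. At an adjusted p under 0.05, the receptor Egfr and the ligand Hbegf were higher in APC-KI tumours and 0 members were lower. Over all genes tested, 12.5% were called higher and 7.63% lower, 20.1% in all, so 2 calls among 10 members are near the background. At an unadjusted p under 0.05, 5 members were higher and 2 lower, where 21.2% of all genes tested were higher and 16.7% lower. For 6 of the 10 members the APC-KI and APC-WT values lay apart, as they did for 44.5% of all genes tested. The members had a median log2 change of 0.33, against -0.02 over all genes tested.

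**Figure D1:**
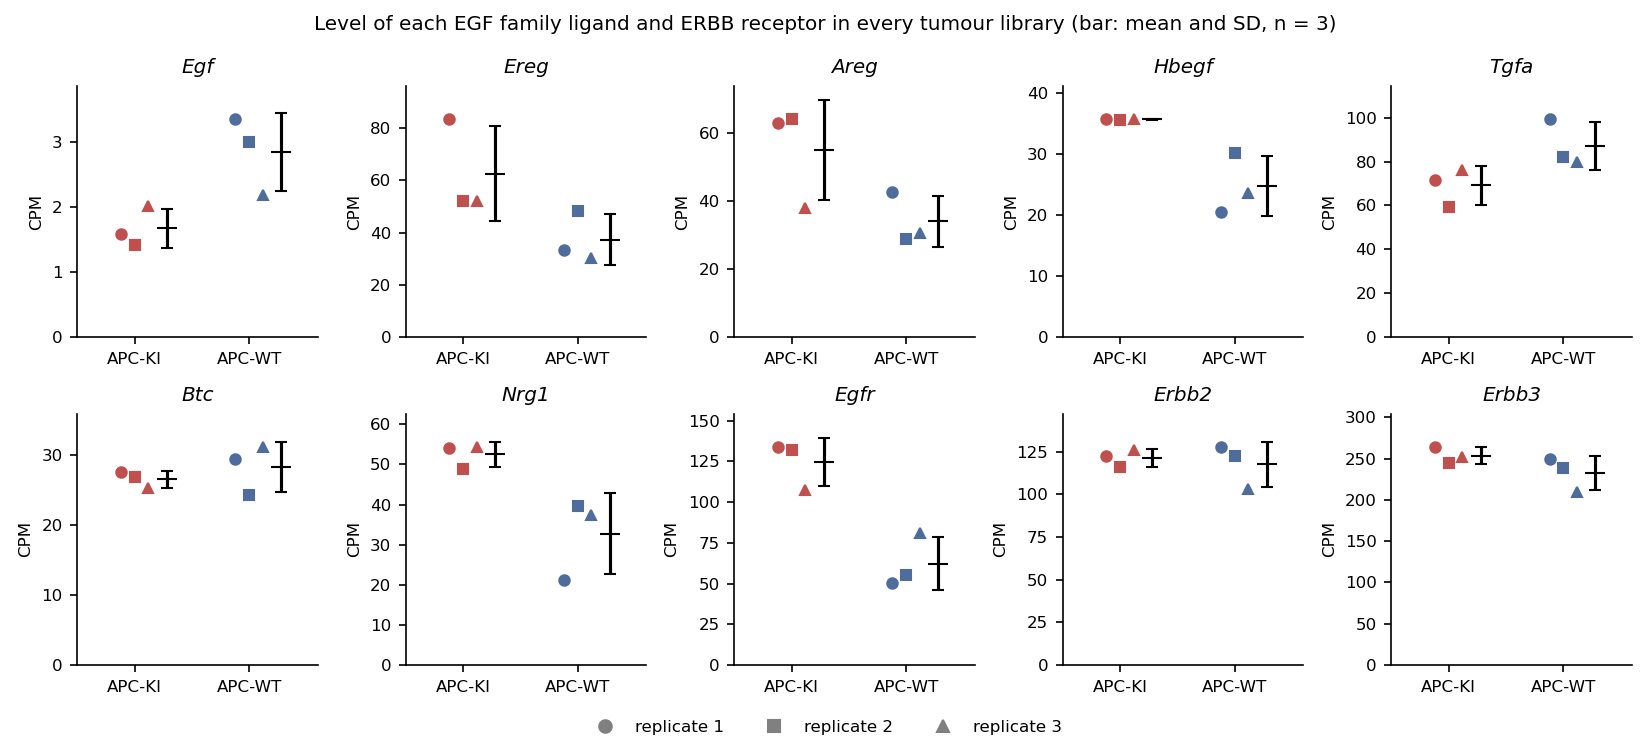
CPM (TMM-scaled) of each of the 10 genes in every library, with the mean and SD of 3 tumours per group. Egfr and Hbegf are higher in every APC-KI tumour than in any APC-WT tumour, while Erbb2, Erbb3 and Btc overlap between the groups.

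Egfr, the receptor for most of these ligands, had the largest change among the members. It stood at 134, 132 and 107 CPM in APC-KI tumours, against 50.4, 55.5 and 80.9 CPM in APC-WT tumours. The groups did not overlap, and the highest APC-WT value was that of replicate 3. The means were 125 ± 15.0 CPM in APC-KI and 62.3 ± 16.3 CPM in APC-WT tumours (SD, n = 3 each), a 2.00-fold higher level in APC-KI (log2 change 1.00 ± 0.19 SE, edgeR adjusted p = 0.0182). On the 6 CPM values, a two-sided exact permutation test had p = 0.1, its lowest possible value with 3 tumours in each group. Egfr did not pass without APC-KI replicate 1, APC-KI replicate 2 or APC-WT replicate 2 (log2 changes 0.95, 0.96 and 0.92, edgeR adjusted p = 0.0665, 0.0599 and 0.0719). Without the 2 libraries that held Y-linked counts the log2 change was 0.62 (edgeR adjusted p = 0.129).

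Erbb2 and Erbb3, the other receptors, had nearly level values. Erbb2, the receptor without a ligand, held 122, 116 and 126 CPM in APC-KI and 128, 122 and 103 CPM in APC-WT tumours, with a log2 change of 0.04 ± 0.10 (SE, edgeR adjusted p = 0.763). The sign of this value was negative (-0.07) with library totals only, and also without APC-WT replicate 3 (-0.05). Erbb3, a neuregulin receptor with little kinase activity of its own, held 265, 244 and 251 CPM in APC-KI and 250, 239 and 209 CPM in APC-WT tumours, with a log2 change of 0.12 ± 0.09 (SE, edgeR adjusted p = 0.331). Both receptors overlapped between the groups. A p that misses the threshold does not show that the levels were equal.

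Because Egfr alone of the receptors passed, its counts were set beside those of Erbb3 within each library, which needs no scaling. There were 0.507, 0.541 and 0.427 Egfr counts per Erbb3 count in APC-KI tumours, against 0.202, 0.233 and 0.387 in APC-WT tumours. The groups did not overlap, and APC-WT replicate 3 lay nearest to the APC-KI tumours. Per unit length, Egfr made up 14.4% ± 1.63 of the summed receptor level in APC-KI and 8.36% ± 2.82 in APC-WT tumours (SD, n = 3 each). Erbb3 made up the largest share in every library, at 55.1% ± 0.51 in APC-KI and 57.8% ± 1.28 in APC-WT tumours (SD, n = 3 each). The ratio and the shares restate the changes of these receptors given above and are no separate test.

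Egfr was also set beside marker lists of epithelial, vascular and stromal cells. Per 1000 epithelial marker counts there were 9.24 to 10.2 Egfr counts in APC-KI tumours and 5.57 to 8.05 in APC-WT tumours, with no overlap. Per 1000 endothelial marker counts there were 395 to 510 Egfr counts in APC-KI and 262 to 338 in APC-WT tumours, again with no overlap. Per 1000 fibroblast marker counts the groups overlapped, with 33.7 to 47.4 Egfr counts in APC-KI and 33.2 to 56.8 in APC-WT tumours. Relative to smooth muscle markers Egfr was lower in APC-KI tumours, with 69.8 to 145 counts per 1000, against 182 to 290 counts per 1000 in APC-WT tumours. By this ratio the mean of every member was lower in APC-KI tumours, with log2 ratios of means from -3.08 (Egf) to -1.06 (Egfr). All 8 smooth muscle markers and 3 of 8 fibroblast markers were called higher in APC-KI tumours and 0 of either list lower. Of 9 epithelial markers 5 were called higher and 0 lower, and of 6 endothelial markers 3 were called higher and 0 lower. At an unadjusted p under 0.05, 6 fibroblast markers were higher. No marker of these lists was at 0 in all libraries. Sums of Paneth-like, mast cell, neutrophil and T cell markers also lay apart between the groups. Per 1000 Paneth-like marker counts there were 73.6 to 141 Egfr counts in APC-KI tumours and 10.5 to 19.0 in APC-WT tumours. Every member was higher in APC-KI tumours by that ratio, with no overlap. The part of all these cells in the level of Egfr was not tested.

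**Figure D2:**
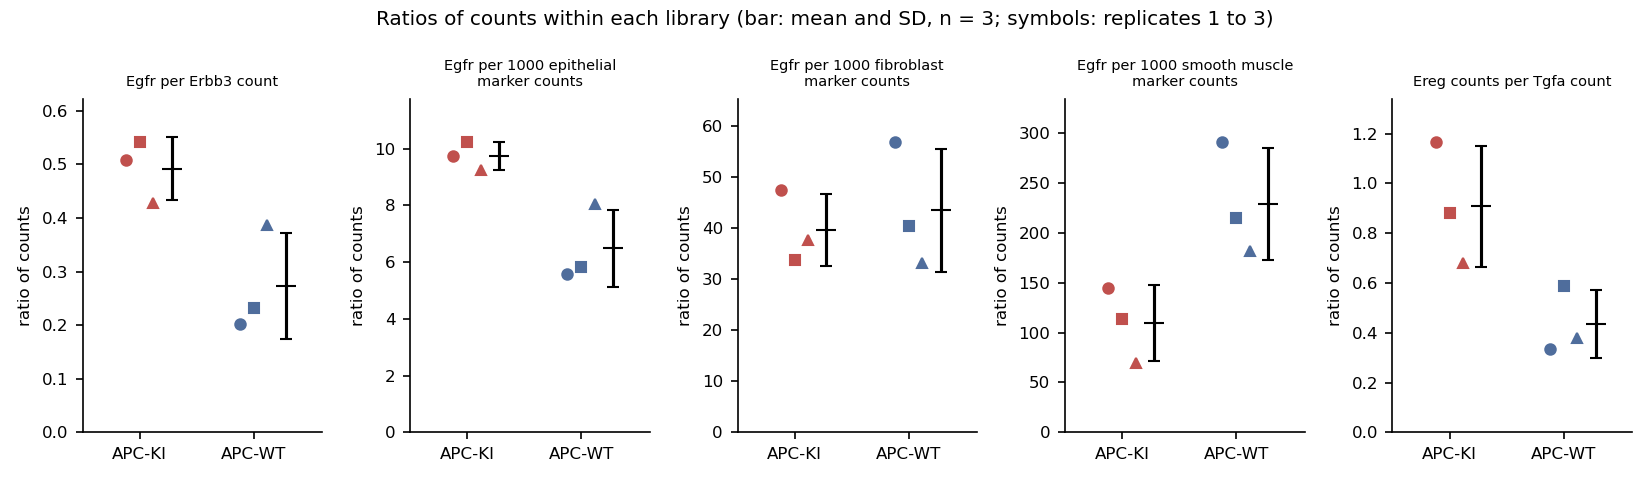
Ratios of counts within each library for Egfr and, at the right, for Ereg, with the mean and SD of 3 tumours per group. Egfr counts per Erbb3 count and per 1000 epithelial marker counts separate the groups, and those per 1000 fibroblast marker counts overlap. Those per 1000 smooth muscle marker counts are lower in APC-KI tumours, as are those of every member by group means.

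Hbegf, which encodes heparin-binding EGF-like growth factor, was the ligand that passed. It held 35.7, 35.6 and 35.7 CPM in APC-KI tumours, against 20.4, 30.1 and 23.6 CPM in APC-WT tumours. The APC-KI tumours were close to each other and all above the APC-WT tumours. The means were 35.7 ± 0.081 CPM in APC-KI and 24.7 ± 4.92 CPM in APC-WT tumours (SD, n = 3 each), 1.45-fold higher in APC-KI (log2 change 0.53 ± 0.14 SE, edgeR adjusted p = 0.0453). The exact two-sided permutation p was again 0.1. Hbegf lay close to the threshold and did not pass without APC-KI replicate 1, 2 or 3 (edgeR adjusted p = 0.125, 0.121 and 0.0810, log2 changes 0.53, 0.54 and 0.52) or without APC-WT replicate 1 or 3 (adjusted p = 0.0810 and 0.0851, log2 changes 0.41 and 0.50). It also did not pass without the 2 libraries with Y-linked counts (log2 change 0.60, edgeR adjusted p = 0.0843), with upper-quartile factors (adjusted p = 0.0583) or with library totals only (adjusted p = 0.0773). Per 1000 epithelial marker counts there were 2.60 to 3.07 Hbegf counts in APC-KI tumours and 2.26 to 3.17 in APC-WT tumours, so the groups overlapped on that scale. They also overlapped per fibroblast, endothelial, macrophage and monocyte, and enteric neuron and glia marker counts. Per smooth muscle marker counts Hbegf was lower in every APC-KI tumour, and per Paneth-like or mast cell marker counts it was higher.

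Ereg and Areg, which encode epiregulin and amphiregulin, had higher means in APC-KI tumours but did not pass. Ereg held 83.6, 52.1 and 52 CPM in APC-KI tumours, against 33.3, 48.3 and 30.3 CPM in APC-WT tumours, with APC-KI replicate 1 well above the rest and no overlap. It had a log2 change of 0.75 ± 0.25 (SE, edgeR adjusted p = 0.0820). Areg held 62.9, 64.1 and 38 CPM in APC-KI tumours, against 42.6, 28.9 and 30.6 CPM in APC-WT tumours. Here APC-KI replicate 3 lay below APC-WT replicate 1, so the groups overlapped (log2 change 0.69 ± 0.24 SE, edgeR adjusted p = 0.0862). Without APC-KI replicate 3 Areg passed, at a log2 change of 0.89 (edgeR adjusted p = 0.0250). Over the 16 alternative fits listed below, log2 changes were 0.57 to 0.89 for Areg, which passed in 2. For Ereg they were 0.48 to 1.05, with a pass in 1. Per 1000 epithelial marker counts both genes overlapped between the groups, with 4.03 to 6.07 Ereg counts in APC-KI and 3.01 to 5.09 in APC-WT tumours, and 3.27 to 4.95 Areg counts in APC-KI and 3.04 to 4.71 in APC-WT tumours. Both also overlapped per fibroblast, endothelial, macrophage and monocyte, and enteric neuron and glia marker counts. Per smooth muscle marker counts Ereg overlapped and Areg was lower in every APC-KI tumour. Per Paneth-like or mast cell marker counts both were higher in every APC-KI tumour.

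These ligand genes are neighbours in the genome. In GENCODE M21 on GRCm38, Ereg lies at chr5:91074622-91093646 and Areg at chr5:91139599-91148432, both on the plus strand, and Btc at chr5:91357261-91402994 on the minus strand. Epgn, the gene for epigen, another EGFR ligand, comes before them at chr5:91027464-91035215. Along the chromosome the log2 changes were 3.05 for Epgn, 0.75 for Ereg, 0.69 for Areg and -0.09 for Btc. Epgn was a low-level gene, with 2.90, 5.37 and 1.03 CPM in APC-KI tumours, against 0.210, 0.317 and 0.598 CPM in APC-WT tumours, and it passed (SE 0.69, edgeR adjusted p = 0.0277). The call for Epgn was lost without APC-KI replicate 1 or 2 (log2 changes 3.10 and 2.40, edgeR adjusted p = 0.0774 and 0.0730) and without APC-WT replicate 1 or 2 (log2 changes 2.76 and 2.95, adjusted p = 0.0779 and 0.100). Without the 2 libraries with Y-linked counts Epgn had a log2 change of 2.37 (edgeR adjusted p = 0.311).

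RefSeq promoter windows on GRCm38.p6, from 250 bases before to 50 after the start site, were at hand for 6 of the 10 members (Egf, Areg, Btc, Tgfa, Egfr and Erbb2) and for Epgn. They are shown for Areg, Epgn and Egfr, the first because it holds the one full cAMP response element found, the second because it holds the one TCF/LEF match and the last because Egfr had the largest change among the members. Motifs were searched on both strands as CTTTGAT or CTTTGAA for TCF/LEF factors, TGANTCA for AP-1, CCGGAAGT for ETS factors, TGACGTCA for the cAMP response element and TGACG for its core, which the full element contains on each strand. Capitals mark every match.
Areg, chr5:91139349-91139648, plus strand: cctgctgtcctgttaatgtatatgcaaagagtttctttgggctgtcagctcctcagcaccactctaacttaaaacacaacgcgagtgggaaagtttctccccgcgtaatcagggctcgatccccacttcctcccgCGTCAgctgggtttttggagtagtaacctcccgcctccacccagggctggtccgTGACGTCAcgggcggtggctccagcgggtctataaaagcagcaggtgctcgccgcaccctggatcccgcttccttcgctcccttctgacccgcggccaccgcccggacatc
Epgn, chr5:91027267-91027566, plus strand: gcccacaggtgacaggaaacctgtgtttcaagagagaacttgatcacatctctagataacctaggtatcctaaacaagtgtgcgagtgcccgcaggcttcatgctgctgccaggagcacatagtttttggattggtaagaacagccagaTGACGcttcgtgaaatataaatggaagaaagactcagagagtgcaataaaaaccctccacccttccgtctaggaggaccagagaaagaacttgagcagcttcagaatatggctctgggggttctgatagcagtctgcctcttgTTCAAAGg
Egfr, chr11:16751953-16752252, plus strand: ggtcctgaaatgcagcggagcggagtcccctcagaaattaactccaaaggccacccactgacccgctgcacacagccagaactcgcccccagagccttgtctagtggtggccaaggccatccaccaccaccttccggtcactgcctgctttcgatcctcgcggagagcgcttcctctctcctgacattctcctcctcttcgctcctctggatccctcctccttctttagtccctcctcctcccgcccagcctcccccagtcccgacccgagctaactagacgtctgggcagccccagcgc

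The Areg window holds the full cAMP response element, with its first base 61 bases before the start site. That element occurs in 1.79% of all 32851 promoter windows, its core in 20.8%, the AP-1 motif in 7.81% and the ETS motif in 3.89%. In humans this element in the AREG promoter is a known binding site of CREB. The Epgn window holds TTCAAAG, the reverse complement of CTTTGAA, 43 bases into the transcript. A TCF/LEF match occurs in 8.65% of all windows and in 0 of the members' windows, which include a second Egf start. One of the Egf windows holds the ETS motif, 45 bases before that start. The Egfr window has 0 matches to these motifs and is 62.3% G and C, where the median of all windows was 52.7%. A match is a stretch of letters, and no match says only that these letters are not in the window.

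Tgfa, the gene for transforming growth factor alpha, had lower values in APC-KI tumours, at 71.8, 59.3 and 76.3 CPM, against 99.5, 82.0 and 79.9 CPM in APC-WT tumours. The groups did not overlap, although APC-KI replicate 3 and APC-WT replicate 3 lay close, and the log2 change of -0.33 ± 0.13 did not pass (SE, edgeR adjusted p = 0.105). Within each library there were 1.17, 0.880 and 0.681 Ereg counts per Tgfa count in APC-KI tumours, against 0.334, 0.589 and 0.380 in APC-WT tumours. For Areg there were 0.877, 1.08 and 0.498 counts per Tgfa count in APC-KI tumours, against 0.428, 0.352 and 0.383 in APC-WT tumours. Both ratios were higher in every APC-KI tumour than in any APC-WT tumour, and neither depends on the scaling. They restate the opposite changes of these genes given above and are no separate test. Per 1000 epithelial marker counts Tgfa also did not overlap, with 4.58 to 6.56 counts in APC-KI and 7.94 to 11 in APC-WT tumours.

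Egf itself, the gene for epidermal growth factor, was by far the least abundant member. It held 83, 74 and 113 counts in APC-KI libraries, against 224, 171 and 117 counts in APC-WT libraries. In CPM this was 1.59, 1.42 and 2.01 in APC-KI tumours, against 3.36, 3.01 and 2.19 in APC-WT tumours, with no overlap and with replicate 3 of each group nearest to the other group. At a log2 change of -0.77 ± 0.26 it did not pass (SE, edgeR adjusted p = 0.0759), but it passed without APC-WT replicate 3 (log2 change -0.93, adjusted p = 0.0493). Egf passed in 2 of the 16 alternative fits, over which its log2 change was -0.93 to -0.39. Of its exon bases in GENCODE M21, 9.82% are shared with antisense gene models, which themselves held at most 1 count in a library. Egf differed in the same direction as markers of Paneth-like and deep crypt secretory cells. Those 8 markers summed to 940 to 1460 CPM in APC-KI tumours and to 4004 to 4784 CPM in APC-WT tumours, and 7 were called lower. Per 1000 of their counts there were 1.38 to 1.51 Egf counts in APC-KI tumours and 0.514 to 0.751 in APC-WT tumours, so by this ratio Egf was the higher in APC-KI tumours. Every member was, without overlap, and the log2 ratio of means was smallest for Egf (1.14) and largest for Egfr (2.96). The part of these cells in the level of Egf was not tested.

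Btc, which encodes betacellulin, held 27.7, 26.8 and 25.3 CPM in APC-KI tumours, against 29.4, 24.2 and 31.3 CPM in APC-WT tumours. The groups overlapped, with a log2 change of -0.09 ± 0.12 (SE, edgeR adjusted p = 0.595). Nrg1, the gene for neuregulin 1, held 54.2, 48.8 and 54.5 CPM in APC-KI tumours, against 21.1, 39.7 and 37.3 CPM in APC-WT tumours. Every APC-KI tumour was above the APC-WT tumours, of which replicate 1 was the lowest (log2 change 0.68 ± 0.23 SE, edgeR adjusted p = 0.0784). Without APC-WT replicate 1 the log2 change of Nrg1 was 0.45, and it then passed (edgeR adjusted p = 0.0340). Nrg1 passed in 2 of the 16 alternative fits, over which its log2 change was 0.45 to 0.84.

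Nrg1 is made in the intestine mostly by stromal cells, so it was set beside the stromal lists. Per 1000 fibroblast marker counts there were 12.5 to 19.2 Nrg1 counts in APC-KI tumours and 15.3 to 29.0 in APC-WT tumours. Per 1000 marker counts of enteric neurons and glia there were 1283 to 1862 in APC-KI tumours and 996 to 1423 in APC-WT tumours. The groups overlapped on both scales. They also overlapped per 1000 epithelial marker counts, with 3.77 to 4.68 Nrg1 counts in APC-KI and 2.34 to 4.18 in APC-WT tumours. Endothelial and macrophage marker counts likewise gave overlap, so it was not particular to the stromal lists. Per Paneth-like or mast cell marker counts Nrg1 was higher in every APC-KI tumour. Per 1000 smooth muscle marker counts the groups did not overlap, with 35.4 to 58.6 Nrg1 counts in APC-KI tumours and 83.7 to 153 in APC-WT tumours. By this ratio Nrg1 was the lower in APC-KI tumours, as was every member by group means. APC-WT replicate 1, the tumour with the lowest Nrg1 level, also had the lowest sums of fibroblast, smooth muscle, and neuron and glia markers. This was not particular to the stromal lists. Its sums of epithelial, endothelial, macrophage, T cell, and type 2 innate lymphoid and basophil markers were also the lowest. Those of Paneth-like, mast cell and neutrophil markers were not. The neuron and glia markers summed to 29.1 to 41.2 CPM in APC-KI and 21.1 to 37.4 CPM in APC-WT tumours, most of it from Ret, which held 22.7 to 34.03 CPM in APC-KI and 17.35 to 33.6 CPM in APC-WT tumours. Of the 8 markers, 4 were called higher and 0 lower, 6 did not overlap and the median log2 change was 1.66. The part of these cells in the level of Nrg1 was not tested.

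With DESeq2 in place of edgeR, 4 further members passed, Ereg, Areg and Nrg1 as higher (adjusted p = 0.0192, 0.0279 and 0.0207) and Egf as lower in APC-KI tumours (adjusted p = 0.0279). With it 5 members were higher and 1 was lower, where 17.6% of all genes were called higher and 12.5% lower.

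**Figure D3:**
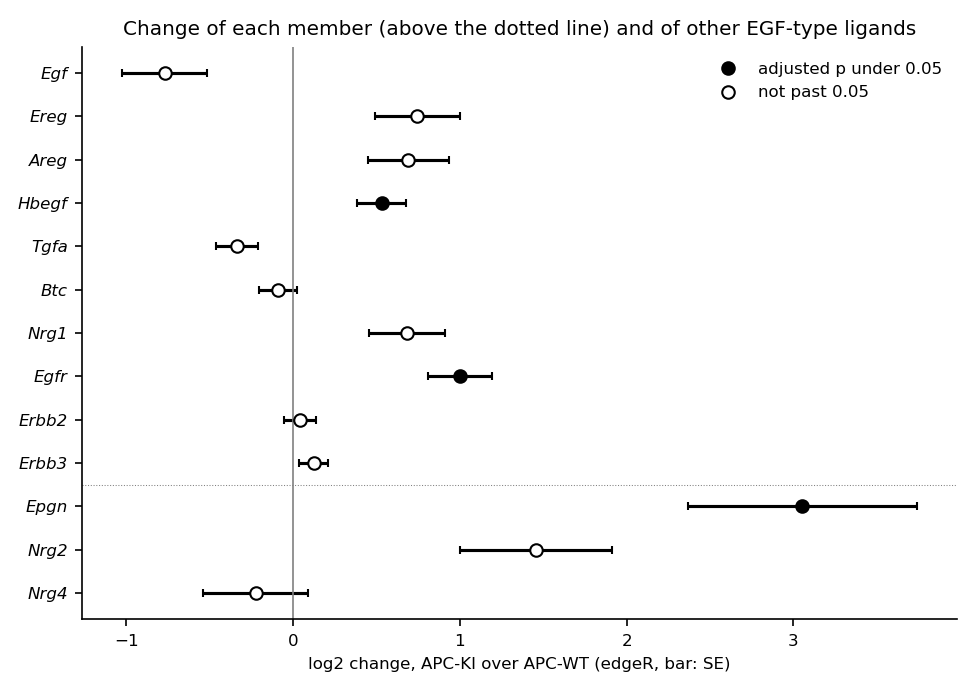
Log2 change of each member, APC-KI over APC-WT, with its SE from edgeR, and below the dotted line the other EGF-type ligands that could be tested. Filled points passed an adjusted p of 0.05, which were Hbegf (0.53) and Egfr (1.00) among the members, and Epgn (3.05) below.

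Levels of different genes were compared as CPM per kilobase of exon (CPM per kb), with exon lengths from GENCODE M21. In APC-KI tumours Areg led, at 45.3 ± 12.1, and overlapped with Erbb3 at 42.1 ± 1.70, followed by Erbb2 at 23.3 ± 1.02 CPM per kb (SD, n = 3 each). Ereg came next at 15.2 ± 4.41, then Egfr at 11 ± 1.32 and Tgfa at 10.6 ± 1.36 CPM per kb, of which Egfr and Tgfa overlapped. Hbegf stood at 7.38 ± 0.017, Btc at 5.88 ± 0.27, Nrg1 at 5.07 ± 0.31 and Egf at 0.148 ± 0.027 CPM per kb, with no overlap between neighbours in this order. In APC-WT tumours Erbb3 led at 38.7 ± 3.48, and Areg at 28 ± 6.16 overlapped with both Erbb3 and Erbb2, which stood at 22.6 ± 2.54 CPM per kb. Tgfa at 13.4 ± 1.66 lay above Ereg at 9.04 ± 2.34 CPM per kb in this group. Btc, Egfr and Hbegf followed at 6.26 ± 0.80, 5.50 ± 1.44 and 5.11 ± 1.02 CPM per kb, each overlapping with the next, then Nrg1 at 3.16 ± 0.98 and Egf at 0.253 ± 0.053 CPM per kb.

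Areg made up the largest share of the summed ligand level per kb in every library, at 49.98% ± 7.38 in APC-KI and 42.7% ± 5.94 in APC-WT tumours (SD, n = 3 each). Ereg and Areg together made up 70.6%, 70.6% and 59.2% in APC-KI tumours, against 60.3%, 55.6% and 53.8% in APC-WT tumours, where APC-KI replicate 3 lay below APC-WT replicate 1. Tgfa had a share of 12.2% ± 3.23 in APC-KI and 20.5% ± 0.83 in APC-WT tumours, and Btc one of 6.65% ± 0.80 in APC-KI and 9.65% ± 1.59 in APC-WT tumours (SD, n = 3 each). Neither overlapped between the groups. Egf made up at most 0.418% of the ligand level in any library. Shares add up to the whole, so that a larger share of one ligand lowers the others.

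**Figure D4:**
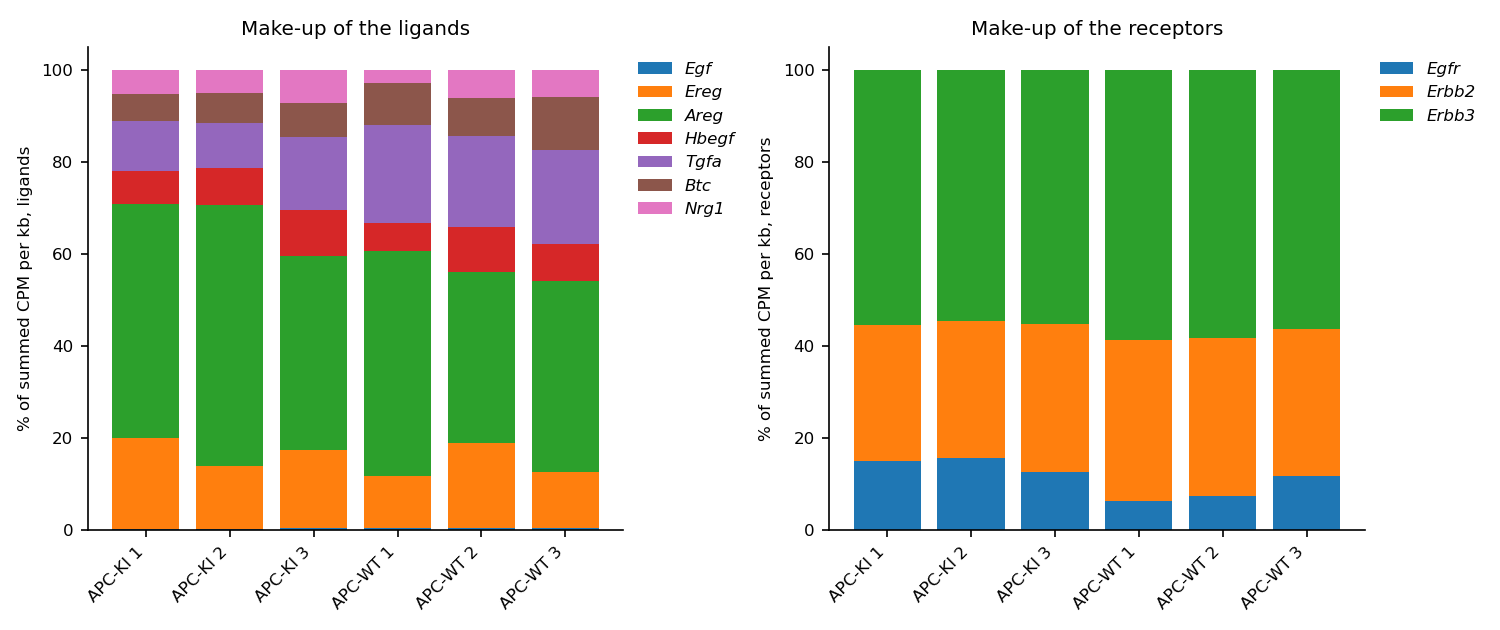
Share of each ligand (left) and receptor (right) in the summed CPM per kb of its kind, for each library. Areg is the largest ligand share in all 6 libraries, Tgfa has the larger share in APC-WT tumours, and Egfr the larger share in APC-KI tumours.

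Of the 4 other EGF-type ligands and the receptor Erbb4, Epgn, Nrg2 and Nrg4 were abundant enough to test. Nrg2 held 0.499, 0.593 and 0.249 CPM in APC-KI tumours, against 0.225, 0.141 and 0.112 CPM in APC-WT tumours, with a log2 change of 1.45 ± 0.46 (SE, edgeR adjusted p = 0.0648). It passed without APC-KI replicate 3 (log2 change 1.74, edgeR adjusted p = 0.0393). That was the 1 pass in the 15 alternative fits that tested Nrg2, over which its log2 change was 1.20 to 1.97. Nrg4, a ligand of ERBB4, held 1.17, 0.727 and 1.28 CPM in APC-KI and 1.29, 0.932 and 1.5 CPM in APC-WT tumours, with overlap (log2 change -0.22 ± 0.31 SE, edgeR adjusted p = 0.631). Erbb4, the remaining receptor, held 6, 12 and 21 counts in APC-KI libraries, against 9, 8 and 0 counts in APC-WT libraries, and Nrg3 held at most 6 counts in any library. Both were too low to test.

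Ligand release needs membrane proteases and their helpers. Of 10 such genes tested, 3 were higher and 0 lower in APC-KI tumours, with a median log2 change of 0.16, and at an unadjusted p under 0.05 4 were higher and 1 lower. Over all genes tested, 12.5% were called higher and 7.63% lower, and 21.2% and 16.7% at an unadjusted p under 0.05. The rhomboid protease gene Rhbdl2 had the clearest change, with 52.9, 47.1 and 44.3 CPM in APC-KI tumours, against 19.8, 25.8 and 25.3 CPM in APC-WT tumours (log2 change 1.03 ± 0.13 SE, edgeR adjusted p = 0.00658). The metalloprotease genes Adam9 and Adam15 were 1.5-fold and 1.45-fold higher (edgeR adjusted p = 0.0120 and 0.0351). Adam17, the main releasing protease of TGF-alpha and amphiregulin, did not pass, at 98.2, 104 and 93.8 CPM in APC-KI and 68.2, 90.4 and 95.3 CPM in APC-WT tumours (log2 change 0.22, edgeR adjusted p = 0.256). Adam10, which releases EGF and betacellulin, had a log2 change of -0.16 (edgeR adjusted p = 0.170). Adam19, another metalloprotease gene, had one of 0.72 (edgeR adjusted p = 0.0617) and passed without APC-WT replicate 3 (1.00, adjusted p = 0.00882). Over the 16 alternative fits Adam19 had log2 changes of 0.29 to 1.00 and passed in 3. Adam9 did not pass without APC-WT replicate 2 (log2 change 0.55, edgeR adjusted p = 0.0568). Adam15 passed when APC-WT replicate 3 was left out and did not pass without any other single library (log2 changes 0.44 to 0.62, edgeR adjusted p 0.0569 to 0.112). Without the 2 libraries with Y-linked counts Adam9 and Adam15 had log2 changes of 0.43 and 0.34, against 0.58 and 0.54 with all libraries. Rhbdl2 had a log2 change of 0.93 without the 2 libraries with Y-linked counts (edgeR adjusted p = 0.0595).

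Of 16 genes that restrain or turn over the receptors, 0 passed in edgeR in either direction as fitted here, while 6 were higher and 0 lower at an unadjusted p under 0.05 (21.2% and 16.7% of all genes tested). With no filter on low counts edgeR called Ptpn1 and Cblc higher (adjusted p = 0.0493 and 0.0397), with the stricter filter it called Ptpn1 (adjusted p = 0.0475), and DESeq2 called both (adjusted p = 0.0223 and 0.0242). These are the phosphatase gene Ptpn1 and the ubiquitin ligase gene Cblc, with log2 changes of 0.33 ± 0.09 and 0.44 ± 0.13 (SE, edgeR adjusted p = 0.0508 and 0.0561). Another ubiquitin ligase gene, Cblb, and Lrig3, of the LRIG family of receptor regulators, had log2 changes of 0.34 and 0.63 (edgeR adjusted p = 0.0858 and 0.105). Cblc passed without APC-WT replicate 1 (log2 change 0.59, edgeR adjusted p = 0.0157) and Cblb without APC-WT replicate 3 (log2 change 0.45, adjusted p = 0.0303). Over the 16 alternative fits log2 changes were 0.32 to 0.59 for Cblc, which passed in 3. For Cblb they were 0.13 to 0.45, with a pass in 1. The list had a median log2 change of 0.16.

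Among 19 adaptors and kinases of the relay to ERK, 2 were higher and 1 was lower in APC-KI tumours, with a median log2 change of 0.0026. Of all genes tested, 12.5% were called higher and 7.63% lower. Map2k1, the gene for MEK1, and Ksr1, a scaffold of the kinases, were 1.42-fold and 1.40-fold higher (edgeR adjusted p = 0.0300 and 0.0261). Gab1, a docking protein below EGFR, held 29.2, 24.9 and 37.0 CPM in APC-KI tumours, against 61.8, 48.5 and 44.1 CPM in APC-WT tumours (log2 change -0.76 ± 0.18 SE, edgeR adjusted p = 0.0324). Grb2, the adaptor that couples the receptors to RAS activation, had a log2 change of 0.20 (edgeR adjusted p = 0.0920). Map2k1 and Gab1 did not pass without APC-KI replicate 1 or 2 or APC-WT replicate 1 or 2 (edgeR adjusted p 0.0711 to 0.104 for Map2k1 and 0.0723 to 0.110 for Gab1), nor Ksr1 without APC-KI replicate 2 or APC-WT replicate 2 or 3 (adjusted p = 0.0679, 0.0909 and 0.0517). Their log2 changes in these fits were 0.43 to 0.49 for Map2k1, -0.80 to -0.61 for Gab1 and 0.44 to 0.52 for Ksr1. Without the 2 libraries with Y-linked counts the log2 changes were 0.33 for Map2k1, -0.54 for Gab1 and 0.59 for Ksr1.

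Genes that ERK signalling induces, among them its own inhibitors, did not move one way. Of 18 tested, 4 were higher and 5 lower in APC-KI tumours, where 12.5% and 7.63% of all genes tested were called. The median log2 change of the list was -0.01. The 4 higher genes encode inhibitors of the pathway, but other inhibitor genes of the list were not called. Dusp4 was lower in every APC-KI tumour than in any APC-WT tumour (log2 change -0.49, edgeR adjusted p = 0.0673). Spry1, Spred1 and Spred2 had log2 changes of 0.05, 0.19 and -0.07. Dusp6, a phosphatase that acts on ERK, held 118, 121 and 112 CPM in APC-KI tumours, against 64.3, 64.4 and 68.7 CPM in APC-WT tumours, with tight groups far apart (log2 change 0.83 ± 0.07 SE, edgeR adjusted p = 0.00260). Dusp5, a nuclear ERK phosphatase, was 2.48-fold higher, and Spry4 and Spry2, which inhibit receptor tyrosine kinase signalling, were 1.87-fold and 1.5-fold higher (edgeR adjusted p = 0.00943, 0.0180 and 0.0117). Of the genes that were lower, the transcription factor gene Etv5 held 68.6, 74.4 and 100 CPM in APC-KI tumours, against 206, 163 and 186 CPM in APC-WT tumours (log2 change -1.19 ± 0.16 SE, edgeR adjusted p = 0.00769). Myc, Ier3, Ccnd1 and Phlda1 were also lower, with log2 changes of -0.61, -0.56, -0.50 and -0.45 (edgeR adjusted p = 0.0130, 0.0233, 0.0326 and 0.0458), and Myc and Ccnd1 are also known Wnt targets. These and Spry4, Dusp4, Spry1, Spred1 and Spred2 were named after their values were seen.

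Dusp6 alone of the pathway genes passed both without each single library and without the 2 libraries with Y-linked counts. Dusp5 and Etv5 passed without each single library and had log2 changes of 1.00 and -1.20 without those 2 libraries (edgeR adjusted p = 0.0631 and 0.0747). Spry2 did not pass without APC-KI replicate 1 (log2 change 0.58, edgeR adjusted p = 0.0514), Myc without APC-KI replicate 2 (log2 change -0.60, adjusted p = 0.0518), or Spry4 without APC-KI replicate 1 or 2 or APC-WT replicate 2 (log2 changes 0.78 to 0.97, adjusted p 0.0521 to 0.0665). Ier3 did not pass without APC-KI replicate 1 or 2 or APC-WT replicate 1 or 2 (log2 changes -0.59 to -0.47, edgeR adjusted p 0.0556 to 0.0873). Ccnd1 passed without APC-WT replicate 1, while the other fits without 1 library had log2 changes of -0.55 to -0.42 (edgeR adjusted p 0.0540 to 0.105). Phlda1 passed without APC-KI replicate 3, while the other fits without 1 library had log2 changes of -0.55 to -0.33 (edgeR adjusted p 0.0541 to 0.146).

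**Figure D5:**
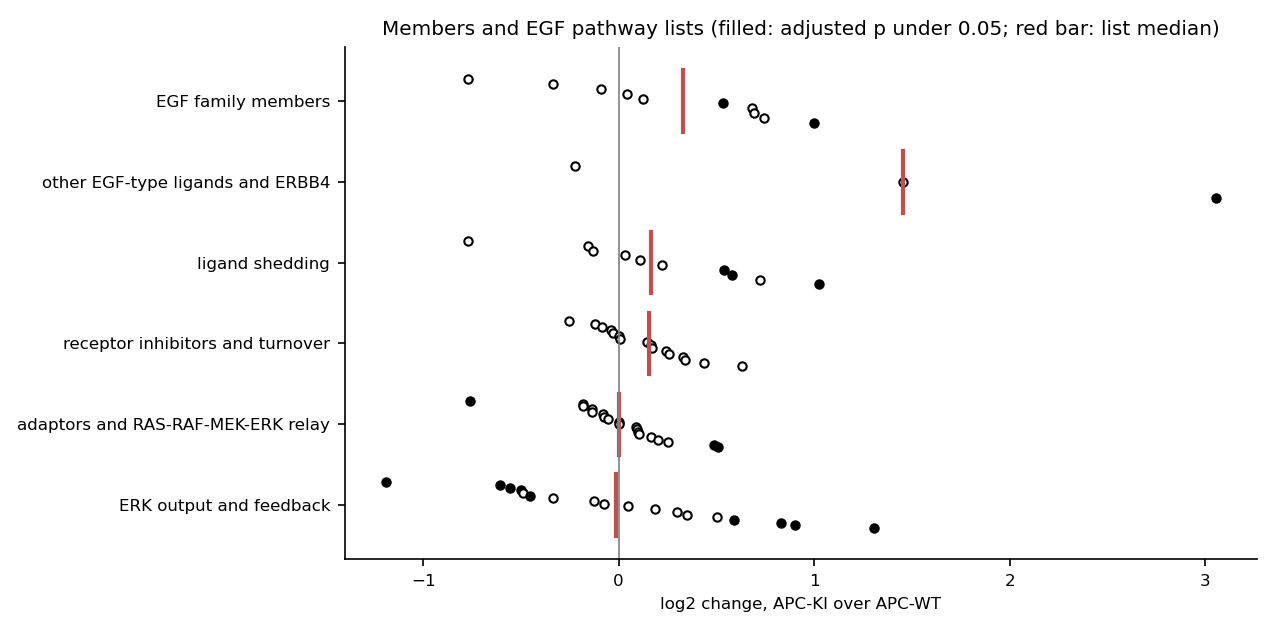
Log2 change, APC-KI over APC-WT, of each tested gene among the members and in the EGF pathway lists, with red bars at the list medians. Filled points passed an adjusted p of 0.05. The ERK output list has filled points on both sides of 0, 4 higher and 5 lower, and the list of receptor inhibitors has none.

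Other genes with profiles like those of the called members were sought among 13428 protein-coding genes with a mean of at least 1 CPM, as a description. Likeness was the root mean square difference of mean-centred log2 CPM over the 6 libraries. For Egfr the nearest were Parp12 and Fam102b, at 0.0386 and 0.0414, and for Hbegf they were Ssh1 and Glp2r, at 0.0250 and 0.0505.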

How the data were processed

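The authors deposited 1 table of raw counts, whole numbers by Ensembl gene, for the 6 libraries. Per the submitters' processing notes, the tools were STAR, Trim Galore 0.6.4, DESeq2 1.37.6 and cutadapt 2.5, and the builds named are GRCm38 and mm10. How reads were counted, on which strand and with which annotation is not given in the sources used here. Libraries were made with a stranded mRNA kit, per the labels' protocols.

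Symbols came from GENCODE M21, which named 52093 of 53700 identifiers. Identifier versions equalled those of M21 for only 35, so the authors' annotation was a different one, and coordinates and exon lengths here are those of M21. For 67 symbols with more than 1 identifier the one with the highest total took the symbol. Promoter sequences are RefSeq's on GRCm38.p6.

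Groups came from the sample titles. In R 4.3.3, edgeR 4.0.16 filtered genes (filterByExpr), scaled libraries (TMM), estimated dispersions and ran its robust quasi-likelihood test (glmQLFTest), group being the sole term. The Benjamini-Hochberg adjustment ran over 19127 genes, with a threshold of 0.05. A positive log2 change means higher in APC-KI, and its SE is the log2 change over the square root of the F statistic. The code was tested on simulated data. Within groups, pairs of libraries had a chi-square of 40.1 to 114.5 for each gene, so all were kept as replicates. The labels do not say that each library came from a separate animal, so p-values measure the spread between these libraries, which may be technical in part.

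The members and lists were chosen with earlier results of these data known. The text names all members, Tcf7l2, all other EGF-type ligands, and from each other pathway list the 4 genes with the smallest p. Adam17, Adam10, the genes beside the chromosome 5 cluster and further ERK output genes, as marked there, fall outside that rule. They were added after their values were seen. Alternatives were DESeq2 1.42.0, limma-voom (limma 3.58.1), upper-quartile or RLE factors, unscaled library totals, no filter, CPM above 1 in at least 3 libraries, the replicate number as a block, each library left out, the 2 libraries with Y-linked counts left out, and their presence as a covariate. The sex of the animals was not in the labels.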

Additional observations from a re-analysis of the deposited data

How the results depend on the processing

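RLE factors, limma-voom, no filter and a stricter filter left the 2 members called higher and 0 called lower, and moved the counts over all genes, members and all pathway genes by less than 1.5 times. Among receptor inhibitors, 2 genes were called higher with no filter and 1 with the stricter filter, against 0 as reported. Upper-quartile factors gave 1 member higher. Library totals only gave 1 member higher, 2844 genes lower and 12 pathway genes lower, with the median log2 change of all genes moved by -0.116 and the share of higher calls at 41%, against 62.1% as reported. Erbb2 then had a log2 change of -0.072, and without 1 library at a time it lay between -0.046 (without APC-WT replicate 3) and 0.107. Of the genes beside the chromosome 5 cluster, without the 2 libraries with Y-linked counts and with a covariate for those counts, Cxcl2 had log2 changes of 0.346 and 0.348 and Mthfd2l of 0.0567 and 0.0593; without 1 library at a time they ranged between -0.194 and 0.171 for Cxcl2 and between -0.122 and 0.0553 for Mthfd2l. Adam10 passed as lower with library totals only (log2 change -0.27, edgeR adjusted p = 0.0334). DESeq2 called 5 members higher and 1 lower, beside 3369 genes higher and 2388 lower in all.

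Without 1 library at a time, 788 to 2542 genes were higher and 300 to 1595 lower, 0 to 2 members higher and 0 to 1 lower, and 4 to 12 pathway genes higher and 1 to 6 lower. Without the 2 libraries with Y-linked counts 178 genes were higher and 152 lower, with 0 members and, of the pathway genes, 1 higher and 0 lower (unadjusted p under 0.05 in 4 members higher and 0 lower, and in 12 pathway genes higher and 7 lower). A covariate for the Y-linked counts gave 220 genes higher and 195 lower, 0 members, and 1 pathway gene higher and 0 lower (unadjusted, 4 members higher and 0 lower, and 10 pathway genes higher and 6 lower).

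Same-numbered libraries did not deviate together, with correlations across genes of 0.027, -0.087 and -0.230 for replicates 1 to 3. Between libraries with different numbers the correlations were -0.213 to 0.267. With 3 libraries in each group, this shows no pairing by number but cannot exclude it. With the replicate block 1195 genes were higher and 465 lower, 0 members (5 higher and 1 lower at an unadjusted p under 0.05), and 3 pathway genes higher and 3 lower. The cause of these differences was not tested. Depth limits what can be said of Epgn, Nrg2, Nrg3 and Erbb4, whose counts were low in some libraries.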

Other observations

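The genes that flank the ligand cluster on chromosome 5 did not pass. Mthfd2l, a mitochondrial folate enzyme gene just before Epgn, held 16.5, 14.4 and 14.9 CPM in APC-KI tumours, against 18.5, 14.7 and 14.6 CPM in APC-WT tumours, a log2 change of -0.06 (edgeR adjusted p = 0.757). The neutrophil chemokine genes Cxcl1 and Cxcl2, which lie before it, had log2 changes of 0.26 and -0.03 (edgeR adjusted p = 0.129 and 0.934). Neutrophil markers (6 genes) summed to 488 to 692 CPM in APC-KI tumours and to 309 to 394 CPM in APC-WT tumours, and 3 of them were called higher. Markers were also summed for mast cells, T cells, macrophages, and type 2 innate lymphoid cells with basophils, which can make amphiregulin or HB-EGF. Mast cell markers summed to 22.3 to 39.0 CPM in APC-KI tumours and to 163 to 911 CPM in APC-WT tumours, with 9 of 9 lower. T cell markers summed to 34.3 to 53.8 CPM in APC-KI tumours and to 17.2 to 21.5 CPM in APC-WT tumours, with 5 of 7 higher. Macrophage and monocyte markers summed to 756 to 1280 CPM in APC-KI tumours and to 578 to 1033 CPM in APC-WT tumours, with 3 of 8 higher and overlapping sums. Markers of type 2 innate lymphoid cells and basophils summed to 126 to 194 CPM in APC-KI tumours and to 80.0 to 280 CPM in APC-WT tumours, with overlap, and 0 of the 4 that could be tested were called in edgeR (3 higher and 0 lower at an unadjusted p under 0.05). Most of each sum on this last list came from Il1rl1, which itself overlapped between the groups. Gata3, Rora and Klrg1 were each higher in every APC-KI tumour than in any APC-WT tumour, and Mcpt8, Il4 and Il13 were too low to test. The overlap of the sums is thus mainly that of Il1rl1. The part of these immune cells in the levels of Areg and Hbegf was not tested.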
